A study of Mus musculus with 4 samples.

Results

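The BCL2 family decides whether a cell under stress lives or undergoes apoptosis, and 10 of its best-studied genes were read in gamma delta intraepithelial lymphocytes of the mouse colon. The genes were the survival members Bcl2, Bcl2l1 (BCL-XL) and Mcl1, and the death members Bax, Bak1, Bid, Bad, Bcl2l11 (BIM), Bbc3 (PUMA) and Pmaip1 (NOXA). Every probe set whose single platform gene symbol was one of these names was taken, whatever its values. This gave 29 of the 45101 probe sets on the array, for 9 of the 18194 genes named there: 15 for the 3 survival genes and 14 for 6 of the death genes. Bax was not analysed here.

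Gamma delta T cells were sorted from the intraepithelial compartment of the colon of conventionally raised C57b/6 mice. The 2 untreated samples came from mice given no treatment. The 2 DSS samples came from mice given 2% dextran sulfate sodium, a polymer that damages the lining of the colon, over 5 days, followed by 3 days on normal drinking water. Each sample was hybridised to 1 array after amplification of its RNA. The labels do not give the animals' age or sex, or say whether a sample was 1 animal, a pool or a repeat of the same RNA. A p-value here therefore reflects the scatter among these 4 samples alone, and that scatter may be technical.

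Survival members bind and restrain the pore-forming members BAX and BAK at the outer mitochondrial membrane. BH3-only members such as BIM, PUMA, NOXA, BID and BAD tip this balance by occupying the survival proteins' groove or by activating the pore formers directly. Once pores form, cytochrome c leaves the mitochondria and caspases are activated. Intraepithelial lymphocytes are known to depend on interleukin-15 from their surroundings, which sustains them in part through BCL2 family proteins.

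The deposited values are signals on a linear intensity scale, already scaled so that every array has the same trimmed mean of 500. Differences are given as DSS minus untreated on the log2(signal + 32) scale, which understates the change of dim probe sets. A probe set was tested if 2 or more of the 4 arrays had it above their median signal, and 24483 probe sets were tested by limma. Limma draws the variance of each probe set towards that of probe sets of similar signal. The SE, intervals and p-values below therefore do not rest on that probe set's own scatter alone. Of the members' 29 probe sets 22 passed this filter, 12 of survival and 10 of death genes. Signals of different probe sets depend on probe binding, so one gene's level is not set against another's.

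The arrays differed in ways that follow the groups. The untreated arrays had median signals of 193.8 and 213.9, the DSS arrays 157.1 and 163.3. Hybridisation control transcripts, which are added to each sample before hybridisation, averaged 4.77-fold more on the untreated arrays. A DSS effect and a difference in array handling cannot be told apart in this design. Across tested probe sets, which are not independent replicates, the untreated arrays correlated at r = 0.763 with each other, below every other pair of arrays, and the DSS arrays at r = 0.902. The 13 lymphocyte markers with a probe set, such as Cd3e, Cd8a, Itgae and Trgv4, lay above the array median on all 4 arrays. Their summed signal was 448550 and 578197 untreated against 324152 and 334507 with DSS, with 4 lower and 2 higher on both DSS arrays and a median log2 difference of -0.31. The 3 markers of other T cells, Cd4, Cd8b1 and Cd40lg, summed to 1024 and 1578 against 443 and 460. Only Cd8b1 was lower on both DSS arrays, at 722 and 727 against 137 and 98.6, while Cd4 and Cd40lg overlapped between the groups. Of 12 macrophage and dendritic cell markers, 11 had both DSS arrays above both untreated arrays, and their summed signal was 6249 to 11789 untreated against 68220 to 91522 in DSS samples. None of these markers was below the median on both DSS arrays. The 10 epithelial markers summed to 8366 to 11645 untreated against 12153 to 14576 in DSS samples. Of these 10, 3 were higher and 1, Krt18, lower on both DSS arrays, and the rest overlapped. Among all genes tested, 17.2% were higher and 23.8% lower on both DSS arrays. For neutrophil markers the summed signals overlapped, with 1783 and 1812 untreated against 1133 and 2342 with DSS. All of these cells express BCL2 family genes, and their part in the values below was not tested. In such bulk samples a transcript from fewer cells and less transcript per cell cannot be told apart.

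No BCL2 family probe set passed the test. Limma with Benjamini-Hochberg adjustment called 0 of the members' 22 tested probe sets, and the smallest adjusted p among them was 0.666, with a smallest unadjusted p of 0.055. Over all tested probe sets it called 0, or 0%, while 7.26% (3.27% higher and 3.99% lower) had an unadjusted p under 0.05 against 0 of the members' 22. The members' log2 differences ran from -0.85 to 0.98, with a median of 0.14, beside a median of -0.10 over all tested probe sets. For 6 of the 22 the groups did not overlap, 4 higher and 2 lower in DSS samples, where 40.7% of all tested probe sets did not overlap, 16.4% higher and 24.3% lower. An exact permutation test of 2 arrays against 2 cannot give a two-sided p below 0.333, so single values carry no such test.

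**Figure D1:**
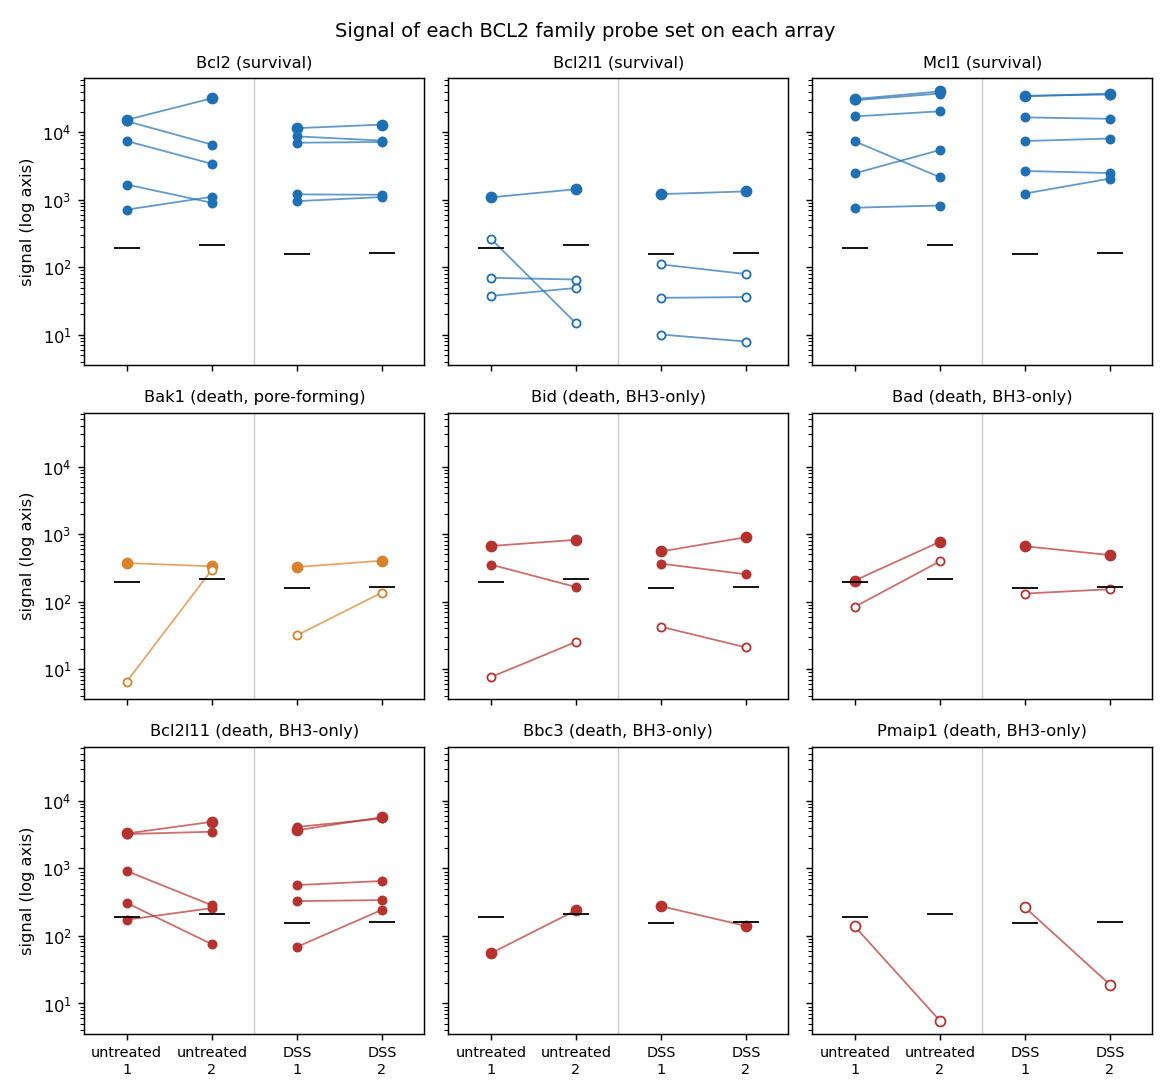
Signal of every BCL2 family probe set on the 4 arrays, with 1 panel per gene, a log axis, and lines joining the arrays of one group. Filled points are the 22 tested probe sets, open points the 7 that did not pass the filter, larger points the brightest probe set of each gene, and black dashes the array medians. Bcl2 lines run in opposite directions between the untreated arrays, Mcl1 1448503_at lies at 7318 and 2159 there, and Mcl1 1416881_at at 1236 and 2057 on the DSS arrays, and Pmaip1 falls below the median on 3 arrays.

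Bcl2 encodes the founding survival protein of the family, and its 5 probe sets did not move together. The brightest, 1443837_x_at, had signals of 15256 and 31744 untreated against 11471 and 12963 with DSS. Both DSS arrays lay below both untreated arrays, and the log2 difference was -0.85 ± 0.45 (SE, n = 2 per group), with a 95% interval of -1.91 to 0.21 and limma adjusted p = 0.667. The untreated arrays differed from each other by 1.06 on the same scale, more than the groups did. Its name ends in _x_at, which marks a probe set that can bind related transcripts.

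The other Bcl2 probe sets overlapped between the groups. On 1440770_at the signals were 14568 and 6562 untreated against 8682 and 7505 with DSS, for a log2 difference of -0.28 ± 0.47. On 1457687_at they were 7397 and 3408 against 6988 and 7164, a difference of 0.49 ± 0.46. On 1422938_at they were 1678 and 902 against 1200 and 1185, a difference of -0.05 ± 0.45. These 3 probe sets were higher in untreated replicate 1 than in replicate 2, while 1443837_x_at was lower there. The fifth, 1437122_at, was also lower in untreated replicate 1, with 713 and 1107 against 953 and 1096 in DSS samples, and differed by 0.19 ± 0.43. Averaged over its 5 probe sets, Bcl2 differed by -0.10.

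Mcl1 encodes a short-lived survival protein that lymphocytes need, and its 3 brightest probe sets stayed close to 0 as deposited. On 1456243_x_at the signals were 30941 and 40125 untreated against 33954 and 37357 with DSS, for a log2 difference of 0.02 ± 0.37 with a 95% interval of -0.85 to 0.88. On 1437527_x_at they were 29710 and 37421 against 34660 and 36139, a difference of 0.09 ± 0.37. On 1456381_x_at both DSS arrays, at 16593 and 15788, lay just below the untreated arrays at 17151 and 20405, a difference of -0.21 ± 0.36. After quantile normalization these 3 differences were 0.40, 0.48 and -0.14, in the same order. With arrays scaled to a common median they were 0.36, 0.43 and 0.14. All 3 names end in _x_at, so their signals may include related transcripts. Within either group these probe sets differed by at most 0.375 between arrays.

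The dimmer Mcl1 probe sets gave larger values in opposite directions. On 1416881_at the signals were 763 and 822 untreated against 1236 and 2057 with DSS, a 2.08-fold ratio of mean signals. Both DSS arrays were higher, and the log2 difference of 0.98 ± 0.43 was the largest among the tested members, with a 95% interval of -0.03 to 1.99 and limma adjusted p = 0.666. On 1448503_at both DSS arrays were also higher, at 7404 and 8065 against 7318 and 2159, but the first untreated array nearly reached them. That difference was 0.95 ± 0.58, and the untreated arrays differed from each other by 1.75. On 1416880_at the groups overlapped, with 2464 and 5447 against 2665 and 2484, and the difference was -0.51 ± 0.47. The 6 probe sets of Mcl1 thus spanned -0.51 to 0.98 and averaged 0.22.

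Bcl2l1, whose long form BCL-XL protects the mitochondria, had 1 probe set bright enough to test. On 1420888_at the signals were 1085 and 1433 untreated against 1211 and 1328 with DSS, so the DSS arrays lay between the untreated ones. The log2 difference was 0.02 ± 0.40, with a 95% interval of -0.91 to 0.96. The other 3 probe sets did not pass the filter. On 1420887_a_at the signals were 69.8 and 65.9 against 35.3 and 36.3, and on 1426191_a_at 37.6 and 49.4 against 10.1 and 7.96. Both were lower on both DSS arrays but lay under the array median on every array. Over all probe sets on the array, dim ones included, 39% did not overlap between groups. The third, 1426050_at, had 265 and 14.9 untreated against 110 and 79.4 with DSS.

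Bak1, the pore-forming member that sits on the mitochondrial membrane, had an estimate near 0 as deposited on its tested probe set. On 1418991_at the signals were 373 and 333 untreated against 326 and 404 with DSS, for a log2 difference of 0.04 ± 0.45 with a 95% interval of -1.03 to 1.10. The groups overlapped, and neither group's arrays stood apart. Its dim probe set 1425716_s_at had 6.55 and 296 against 31.7 and 136. Those arrays differed by 3.09 and 1.40 within the groups, far more than the -0.12 between them.

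Bcl2l11 encodes BIM, the BH3-only protein that ends the life of lymphocytes deprived of cytokine, and 4 of its 5 probe sets had positive differences. The brightest, 1456005_a_at, had signals of 3291 and 4895 untreated against 3666 and 5742 with DSS, for a log2 difference of 0.19 ± 0.42 with overlapping groups. On 1435448_at both DSS arrays were higher, at 4108 and 5487 against 3225 and 3495, a difference of 0.50 ± 0.38 with a 95% interval of -0.39 to 1.38. The untreated arrays differed by 0.11 there.

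The dimmer Bcl2l11 probe sets were less steady. On 1456006_at both DSS arrays were higher, at 328 and 340 against 308 and 75.6, and the difference was 0.94 ± 0.69. The second untreated array alone was low there, under its array median of 213.9. On 1435449_at the signals were 915 and 285 against 567 and 651, a difference of 0.22 ± 0.58, and on 1426334_a_at 174 and 258 against 68.6 and 244, a difference of -0.55 ± 0.77. None of the 5 passed the test, with limma adjusted p of 0.719 or more.

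Bid, which caspase-8 cleaves to link death receptors to mitochondria, overlapped between the groups on its 3 probe sets. On 1417045_at the signals were 666 and 822 untreated against 553 and 898 with DSS, for a log2 difference of -0.07 ± 0.44. On 1447873_x_at they were 353 and 165 against 365 and 254, a difference of 0.29 ± 0.57. The third, 1448560_at, was dim on every array, with signals of 7.61 to 42.5.

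Bad, which growth factor kinases hold inactive by phosphorylation, also overlapped on both probe sets. On 1416582_a_at the signals were 205 and 769 untreated against 661 and 488 with DSS, for a log2 difference of 0.46 ± 0.63. The untreated arrays lay on either side of the DSS arrays. The second probe set, 1416583_at, was below the filter at 83.8 and 395 against 132 and 153, and pointed the other way at -0.36.

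The p53 targets Bbc3 and Pmaip1 each had 1 probe set, and both were near or below the array medians. Bbc3 had signals of 55.3 and 240 untreated against 276 and 140 with DSS, for a log2 difference of 0.58 ± 0.85 with a 95% interval of -1.41 to 2.58. That interval covers a fall as well as a large rise. Pmaip1, not tested, had 138 and 5.56 against 266 and 19.0, a difference of 0.62. In both groups replicate 1 was the higher array, by 2.18 and 2.54, which is far more than the difference between groups.

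**Figure D2:**
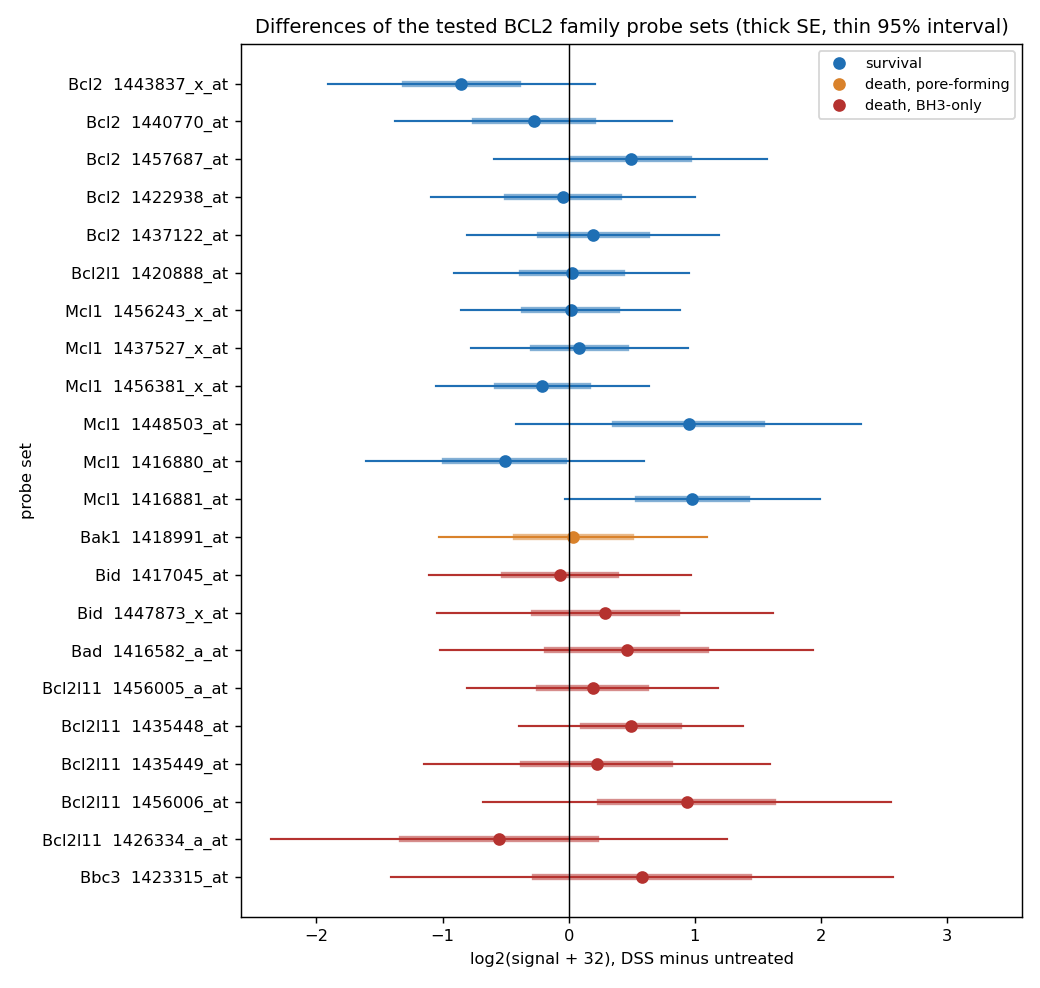
Log2 difference of each of the 22 tested probe sets, DSS minus untreated, by gene, from the brightest to the dimmest of each gene. Points are limma estimates from 2 arrays per group, thick bars the SE and thin bars the 95% interval. Every interval includes 0, and estimates run from -0.85 for the brightest Bcl2 probe set to 0.98 for 1 of Mcl1.

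Survival and death genes were then compared as classes, each gene by its brightest probe set. The median log2 difference was 0.02 over the 3 survival genes, which ran from -0.85 to 0.02. It was 0.33 over the 6 death genes, which ran from -0.07 to 0.62. Over all 12424 genes tested the median was -0.07. The death median exceeded the survival median by 0.31. Array by array, with each gene taken as its deviation from its mean over the 4 arrays, the death median minus the survival median was -0.05 and -0.00082 untreated, and 0.22 and 0.02 with DSS. On that reading the groups differed by 0.14, with an SD of 0.10 between replicates. Both are descriptions of 9 genes, with no test.

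The class difference shrank without the dim genes or without either untreated array. Bad, Bbc3 and Pmaip1 gave the highest values of the death class and had the widest spread between untreated arrays. With only probe sets above the median on at least 2 arrays, a choice made after seeing the data, the class difference was 0.18, and with those above it on all 4 arrays 0.10. The first filter left out Pmaip1 and the second also Bbc3, while Bad passed both. It was 0.02 without untreated replicate 1, 0.11 without untreated replicate 2 and 0.13 without DSS replicate 1. It was 0.34 without DSS replicate 2 and 0.46 after quantile normalization. In these settings the brightest probe set of each gene was chosen again. Without untreated replicate 2 this took Bcl2l11 1435448_at in place of 1456005_a_at, so that value does not reflect the left-out array alone. Without untreated replicate 1 the death genes' own median was -0.15, below 0, and that of the survival genes was -0.17.

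**Figure D3:**
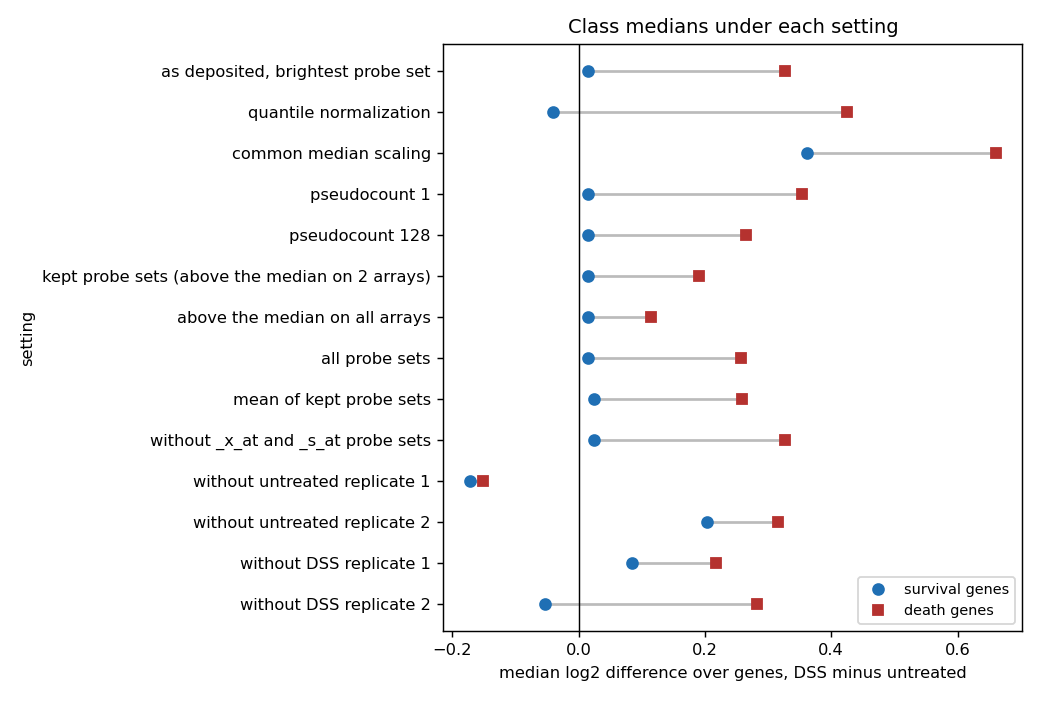
Median log2 difference, DSS minus untreated, over the survival genes (circles) and the death genes (squares) under each setting, joined by a line. The death median lies right of the survival median in each row, but the gap shrinks from 0.31 to 0.02 without untreated replicate 1.

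For most members the untreated arrays differed from each other more than the groups did. The Actb ratio of 3' to 5' probe signal, a sign of RNA quality, was 14.7 and 23.0 untreated against 16.0 and 10.6 with DSS, highest in untreated replicate 2, and its part in this spread was not tested. Across the members' 22 tested probe sets the untreated arrays differed by a median of 0.74 and the DSS arrays by 0.19, while the median size of the group difference was 0.28. Over all tested probe sets these medians were 0.71, 0.39 and 0.50. For 19 of the 22 the difference between groups was smaller than the gap between the untreated arrays, where this held for 62% of all tested probe sets. Between the DSS arrays the median gap was 0.13 over the 12 probe sets of 3 survival genes, against 0.44 over the 10 of 5 death genes. Between the untreated arrays it was 0.74 and 0.77. The survival probe sets reached brighter signals, up to 40125 against 5742, and the part of brightness in these gaps was not tested.

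Leaving out 1 array at a time turned the sign of 16 of the 22 tested probe sets at least once, where this happened for 47.7% of all tested probe sets. The 6 that kept their sign were Bcl2 1443837_x_at, Mcl1 1416881_at, 1448503_at and 1456381_x_at, and Bcl2l11 1435448_at and 1456006_at. Without untreated replicate 1, limma called 4 members, where it called 11.3% of all tested probe sets, and the single remaining untreated array is then assumed to vary as the DSS arrays do. The 4 were Bcl2 1443837_x_at at -1.38 and 1457687_at at 1.05, and Mcl1 1448503_at at 1.82 and 1416880_at at -1.07, with adjusted p of 0.00449, 0.0242, 0.000287 and 0.0246. Each gene thus had 1 call in each direction. Without untreated replicate 2 limma called 0 members, where it called 5.4% of all tested probe sets, and the same 4 probe sets differed by -0.32, -0.06, 0.08 and 0.06.

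**Figure D4:**
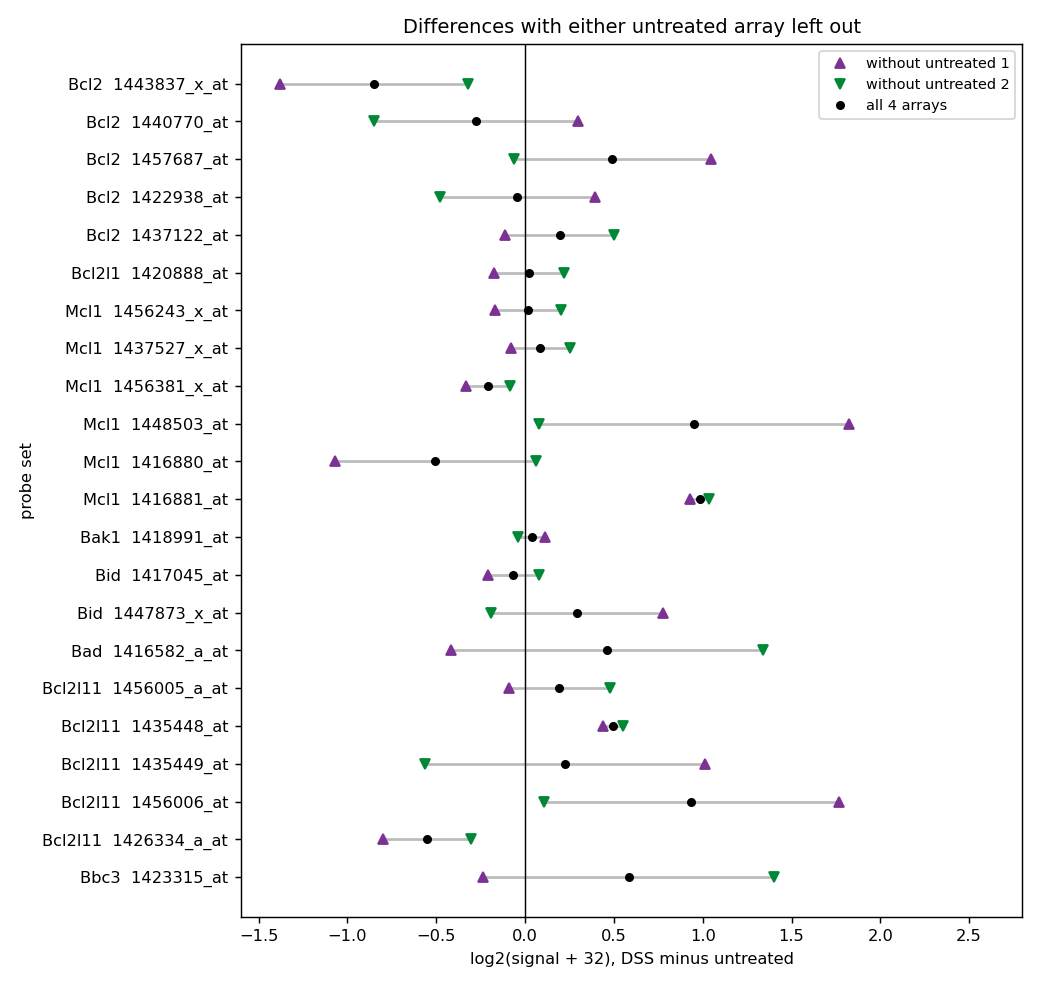
Log2 difference of each tested probe set, DSS minus untreated, with all 4 arrays (black), without untreated replicate 1 (upward triangles) and without untreated replicate 2 (downward triangles). Mcl1 1416881_at (0.93 and 1.03) and Bcl2l11 1435448_at (0.44 and 0.55) moved little, while Mcl1 1448503_at moved from 1.82 to 0.08.

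The genes around the family were read in the same way, with 1 probe set per gene. Of 74 genes in 7 lists, 65 had a probe set and 58 were tested, and limma called 0 of them, as it called 0% of all 12424 genes. At an unadjusted p under 0.05 there were 2 higher and 2 lower, where 7.52% of all genes had such a p, 3.71% higher and 3.81% lower. The groups did not overlap for 27 of the 58, 13 higher and 14 lower, where 41% of all genes did not overlap, 17.2% higher and 23.8% lower. The lists' joint median was 0.10, beside -0.07 over all genes.

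Among upstream regulators and executioners, Vdac2 and Cdkn1a had the smallest p. Vdac2, an outer mitochondrial membrane channel that binds BAK, had signals of 2636 and 1834 untreated against 4897 and 7014 with DSS, for a log2 difference of 1.40 ± 0.41 with limma adjusted p = 0.649. Cdkn1a (p21), a p53 target that halts the cell cycle, had 353 and 591 against 1004 and 1603, a difference of 1.41 ± 0.46, but its other probe set gave -0.45. Both DSS arrays were higher for both genes. Htra2, a mitochondrial protease released in apoptosis, had 4972 and 4567 against 2814 and 2293, a difference of -0.90 ± 0.37, and 0.44 on its other probe set. Casp9, the initiator caspase of the apoptosome, had 396 and 364 against 157 and 146, just below the array medians in DSS samples, a difference of -1.17 ± 0.52. The 14 tested genes of the apoptosome list had a median of 0.10, with 4 higher and 2 lower on both DSS arrays. Over all genes 17.2% were higher and 23.8% lower. The 6 tested regulators of BH3-only genes had a median of 0.20. Ddit3 (CHOP), which drives Bcl2l11 under endoplasmic reticulum stress, was at 0.29 ± 0.47. Mdm2, the p53 ligase, was at 0.27 ± 0.58, but at -1.02 and -0.86 on its other probe sets.

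The kinase Pim1, which is induced by interleukin-15 signalling and phosphorylates BAD, had lower signals in DSS samples. They were 3086 and 3501 untreated against 1756 and 1665 with DSS, for a log2 difference of -0.93 ± 0.37 with limma adjusted p = 0.649, and -0.73 on its other probe set. Il15ra, the interleukin-15 receptor alpha chain, had 486 and 304 against 246 and 30.7, a difference of -1.66 ± 0.83, and 0.61 on its other probe set. The second DSS signal was below its array median. Akt1, another kinase that phosphorylates BAD, had 548 and 575 against 200 and 381, a difference of -0.94 ± 0.48. Of the 12 tested genes of cytokine survival signalling 6 were lower and 2 higher on both DSS arrays. Over all genes 23.8% were lower and 17.2% higher. The list's median was -0.20 as deposited, -0.08 under quantile and 0.13 under common-median scaling. Common-median scaling moved the median of all genes from -0.07 to 0.25 as well, so the list lay below it under both, and Pim1 was at -1.06 and -0.59 under the quantile and common-median scalings.

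The inhibitors of apoptosis, which block caspases or support division, had the highest median of the 7 lists, 0.72 over 5 genes. Birc5 (survivin), a protein of dividing cells, had 22.2 and 188 untreated against 282 and 346 with DSS, a difference of 1.66 ± 0.86. Both untreated signals were below the array medians. Birc3 (cIAP2), an NF-kB target, had 0.72 ± 0.49 by its brightest probe set but -1.65 by the other, and Xiap, the direct caspase inhibitor, by 0.57 ± 0.43 with others from -1.31 to 1.04. These 3 were higher on both DSS arrays, where 17.2% of all genes were, and probe sets of Birc3 and Xiap disagreed in sign. The scalings gave list medians of 0.59 and 1.06.

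The death receptor list had a median of 0.06 over 9 tested genes, and -0.06 after quantile normalization. Fasl, the ligand with which lymphocytes kill Fas-bearing cells, had 11089 and 3875 untreated against 15095 and 11925 with DSS, for a log2 difference of 1.03 ± 0.54, with 1.27 on a dimmer probe set. Both DSS arrays were higher, although the untreated arrays lay far apart. Fadd, the adaptor that joins Fas to caspase-8, had 1176 and 1125 against 532 and 725, a difference of -0.85 ± 0.40, and 0.17 on its other probe set. Traf2, an adaptor of tumour necrosis factor receptors, overlapped between the groups and differed by 1.24 ± 1.04.

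Other relatives and the MCL1 turnover genes completed the lists. Of 8 further BCL2 family genes tested, 2 were higher and 4 lower on both DSS arrays, where 17.2% and 23.8% of all genes were. Their median was -0.08 as deposited and 0.10 after quantile normalization. Bik, a BH3-only death gene, had 279 and 395 against 153 and 66.3, a difference of -1.43 ± 0.66, with its other probe sets at -0.69 and -0.68. Both DSS signals were below the array medians. Bnip3, a mitochondrial protein of mitophagy and hypoxia, differed by 0.69 ± 0.45 and Bok, a pore-forming relative of BAK, by 0.84 ± 0.58. The 4 MCL1 turnover genes had a median of 0.10 and all overlapped, with the kinase Gsk3b at 0.41 ± 0.50, the ubiquitin ligase component Fbxw7 at 0.19 ± 0.52 and the ligase Huwe1 at -0.14 ± 0.39.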

How the data were processed

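Signals of 4 arrays, 2 untreated and 2 DSS, were read from the deposited table of values. These are linear intensity values, 1 per probe set and array, made by the authors with GCOS, per the submitters' processing notes. Its version and algorithm were not given in the sources used here. Dropping 2% of values at either end leaves a mean of 500 on each array, so the arrays had been scaled alike. Precision is limited by having 4 arrays.

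Of the probe sets, a platform table gave 34958 1 symbol, 932 several and 9211 none. By gene number 34754 matched a second table of mouse genes (GRCm38.p6), which updated 0 symbols. Signals were analysed as log2(signal + 32) in R 4.3.3 with limma 3.58.1 (lmFit, eBayes with intensity trend), fitting group alone, with Benjamini-Hochberg adjustment at 0.05 over the 24483 probe sets, or over 12424 genes by the brightest tested probe set. The fit was tested on simulated data. The members and lists were chosen with earlier results of these data known. Of each list, the 3 tested genes with the smallest p are named. Cd3e, Cd8a, Itgae and Trgv4 are examples of their marker list. The alternatives tried were scaling, pseudocount, filter, variance trend, probe set choice, leaving out each array and a replicate block. The replicate numbers are not taken as pairing the arrays.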

Additional observations from a re-analysis of the deposited data

How the results depend on the processing

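Limma called 0 probe sets as deposited and 0 under quantile normalization, common-median scaling, a smaller and a larger pseudocount, no filter and no intensity trend, as it did with 1 probe set per gene. It called 1 of the 14504 probe sets above the median on all 4 arrays, none of them a member. Leaving out each array gave 0 to 2770 calls, with 2770 without untreated replicate 1, 1322 without untreated replicate 2, 10 without DSS replicate 1 and 0 without DSS replicate 2. With the replicate number as a block it called 51, of which 50 were higher, and 0 members. Deviations of same-numbered arrays from their group means correlated at 0.06 over tested probe sets. With 2 arrays per group this sets 1 array gap against another, and cannot decide whether the numbers pair the arrays. Each block holds 1 array of each group, so the block could not change the class medians.

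The survival median was 0.36 and the death median 0.66 after common-median scaling, which moved the median of all tested probe sets from -0.10 to 0.22. The difference between the classes was 0.46 after quantile normalization, 0.18 with probe sets above the median on at least 2 arrays (chosen after seeing the data) and 0.10 with those above it on all 4. Leaving out each array gave -0.17 to 0.20 for survival, -0.15 to 0.32 for death and 0.020 to 0.34 for their difference. The cause of these changes was not tested. Common-median scaling also raised the members' differences, and 1 probe set, Mcl1 1456381_x_at, changed sign there and in no other setting.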
